A study of Mus musculus with 12 samples.

Results

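The serpins are a superfamily of proteins that share 1 fold, and most of them inhibit serine proteases. In mouse sternal cartilage, 54 Serpin genes were measured, out of 22180 genes that had a probe set of their own on the array. They were chosen by name: every probe set that the platform's annotation gives to exactly 1 gene whose symbol starts with Serpin, a clade letter from a to i and a number. For each gene the probe set with the highest mean was taken, which mattered only for Serpinb9b with its 2 probe sets. The 54 genes make up 20 of clade A, 25 of clade B, 2 each of clades F and I, and 1 each of clades C, D, E, G and H. They include 1 pseudogene, Serpina4-ps1. A pair of probe sets that name a Serpin gene together with a further gene were left out, and genes not named by that annotation, such as Serpine2, were not analysed here.

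The arrays compare 6 TIMPless mice with 6 wild type (WT) mice, all of strain C57BL/6J and 4 weeks old, untreated, and the RNA of each mouse was read on an Affymetrix Mouse Gene ST array of its own. The study calls the TIMPless mice QT, since they are whole-body knockouts of Timp1, Timp2, Timp3 and Timp4, the genes of the tissue inhibitors of metalloproteases. According to its methods, Timp1 carries stop codons, whereas the Timp2, Timp3 and Timp4 alleles lack parts of the gene. The pads were macrodissected from the sternum without the xiphoid process, so that a value describes all cells in the piece, and fewer cells of a type and less RNA per cell cannot be told apart. Values are log2 units after robust multiarray average (RMA), and a difference is QT minus WT. A gene was called where limma gave an adjusted p under 0.05 over all 41345 probe sets and the fold change was at least 1.5.

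A serpin works as a bait. The protease cuts an exposed loop of the inhibitor, the serpin snaps into a new shape, and the protease stays bound to it in an inactive complex that cells clear through receptors of the low-density lipoprotein receptor family. TIMPs hold back metalloproteases by a different route, and several metalloproteases can cut the loop of serpins such as alpha-1-antitrypsin and so inactivate them. Clade A holds secreted serpins of blood plasma, made largely in the liver, clade B holds mostly intracellular serpins that guard cells from their own granule proteases, and some members, such as the collagen chaperone Serpinh1, inhibit no protease.

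The labels were checked first. All 4 Timp genes were called lower in QT cartilage, with differences of -0.87 for Timp1, -1.62 for Timp2, -1.27 for Timp3 and -1.66 for Timp4 on the log2 scale (limma, adjusted p from 3.70e-06 to 0.0276). The call of Timp1 was lost without QT replicate 4 or without any 1 of WT replicates 2 to 6. Whether the probes lie in the altered parts of these genes was not examined. The chondrocyte list (14 genes) had mean values of 11.20 to 11.60 in QT mice and 11.50 to 11.84 in WT mice, far above the medians of the arrays, 6.15 to 6.20. By limma 0 of these genes were called, and 5 had an unadjusted p under 0.05. With no minimum fold 2 of them would be called lower, Comp with a difference of -0.52 (adjusted p = 0.00138) and Snorc with -0.36 (adjusted p = 0.0478). WT replicates 5 and 6 had Xist values of 5.34 and 5.17, against 11.91 to 12.22 in the other 10 mice, and Eif2s3y values of 9.20 and 9.06, against 3.50 to 3.99. By these genes the 2 WT mice look male and the other 10 female, and the genotypes thus differ in their mix of sexes.

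Few serpins were called. Serpina3n was called higher in QT cartilage, and Serpina1c and Serpina1d were called lower, all 3 of clade A, although the clades were not tested against each other. By limma 11 of the 54 genes had an unadjusted p under 0.05, 8 of clade A, 2 of clade B and 1 of clade I. The share of all probe sets at that p was not counted. Neither this count nor those of the lists below therefore shows an excess. The calls make up 1 of 54 genes (1.85%) called higher, where 0.595% of all probe sets were, and 2 of 54 (3.7%) called lower, where 1.01% of all probe sets were. Many probe sets name no gene. Among the 23521 named for 1 gene, tested alone, 0.986% were called higher and 1.61% lower. The values of the 6 QT and 6 WT mice did not overlap in 2 of 54 genes (3.7%), Serpina1c and Serpina3n, against 3.42% of all probe sets. The median difference of the 54 genes was -0.05, against 0.00 over all probe sets, and 42 of them differed by less than 0.25. Of the 54 genes, 40 had both group means under the median of every array, so that they were dim on these arrays in either genotype.

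**Figure D1:**
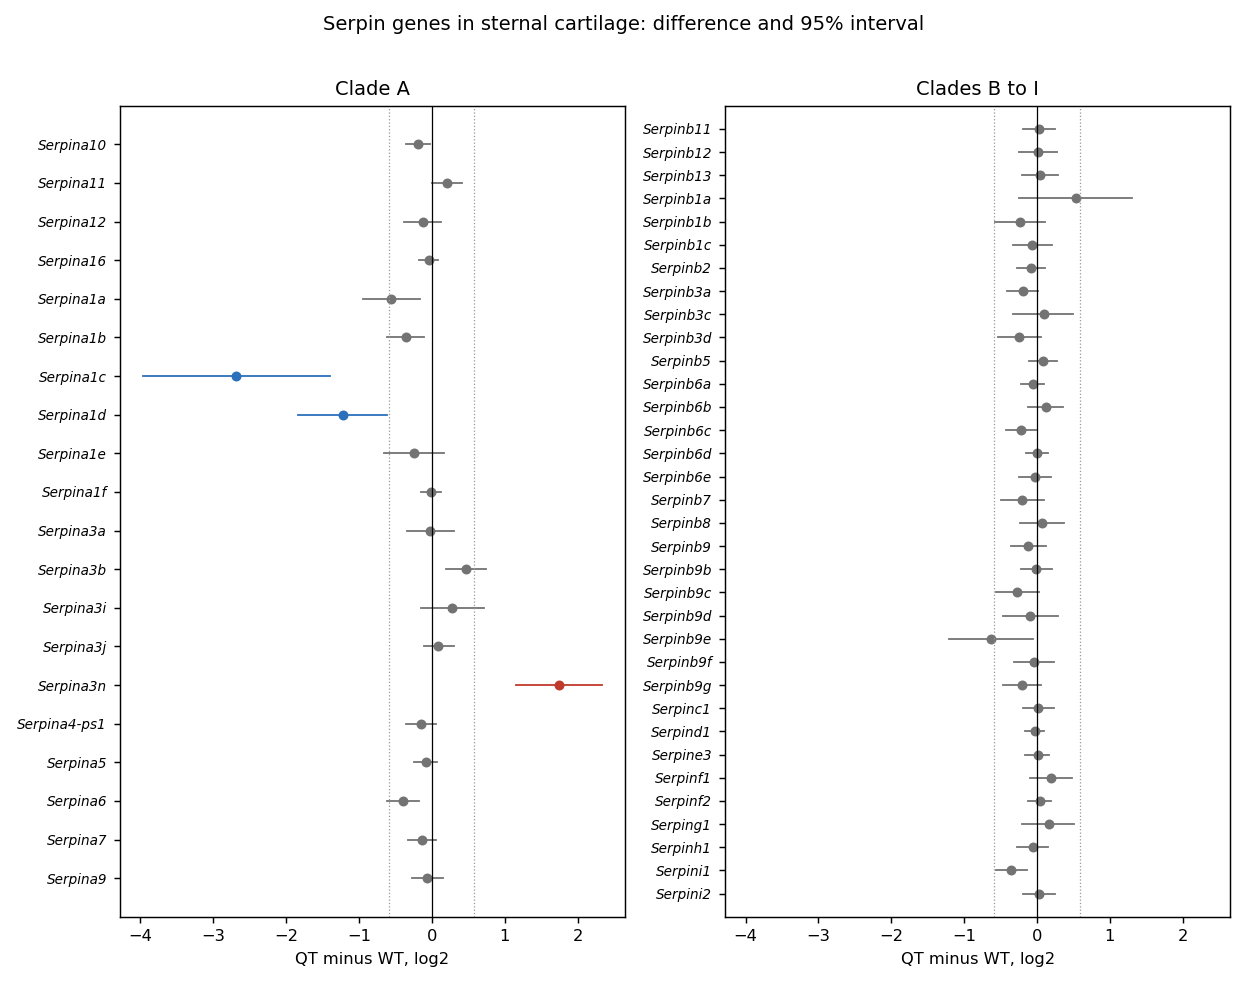
Log2 difference (QT minus WT, x axis) of each of the 54 Serpin genes with its 95% interval, in clade A (left) and clades B to I (right). Red marks the gene called higher, blue the 2 called lower and grey the 51 not called, and the dotted lines mark a fold change of 1.5. Serpina3n at 1.75, Serpina1c at -2.69 and Serpina1d at -1.22 lie far from the rest, which stay between -0.63 and 0.53.

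The start regions of the genes that the results turn on are printed here, since Serpina1c and Serpina1d moved together and their paralogs did not pass the test. Of the 54 genes, 47 had a promoter in the RefSeq table (build GRCm38.p6). Shown are the 250 bases before the transcription start of both called Serpina1 genes, of their paralog Serpina1a and of Serpina3n, all on chromosome 12, read 5′ to 3′ on the gene's own strand. Capitals mark matches on either strand to 4 motifs that were searched: an AP-1 site (TGANTCA), a STAT site (TTCNNNGAA), a hepatocyte nuclear factor 1 (HNF1) half-site (GTTAAT) and a TATA box (TATAAA).
Serpina1c, chr12:103904951-103905200, minus strand: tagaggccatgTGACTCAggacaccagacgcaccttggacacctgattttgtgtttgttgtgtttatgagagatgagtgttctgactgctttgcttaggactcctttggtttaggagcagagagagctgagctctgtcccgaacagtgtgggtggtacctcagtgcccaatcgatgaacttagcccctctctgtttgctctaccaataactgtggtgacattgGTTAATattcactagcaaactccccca
Serpina1d, chr12:103773634-103773883, minus strand: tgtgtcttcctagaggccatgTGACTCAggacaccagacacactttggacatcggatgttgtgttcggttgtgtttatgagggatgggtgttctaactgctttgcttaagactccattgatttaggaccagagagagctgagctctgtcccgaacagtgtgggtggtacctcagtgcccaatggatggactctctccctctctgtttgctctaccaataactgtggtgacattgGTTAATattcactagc
Serpina1a, chr12:103863620-103863869, minus strand: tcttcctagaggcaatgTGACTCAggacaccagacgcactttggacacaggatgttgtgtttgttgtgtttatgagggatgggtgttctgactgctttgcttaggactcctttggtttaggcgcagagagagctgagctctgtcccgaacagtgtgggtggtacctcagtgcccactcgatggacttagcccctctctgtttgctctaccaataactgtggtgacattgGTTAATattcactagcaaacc
Serpina3n, chr12:104406458-104406707, plus strand: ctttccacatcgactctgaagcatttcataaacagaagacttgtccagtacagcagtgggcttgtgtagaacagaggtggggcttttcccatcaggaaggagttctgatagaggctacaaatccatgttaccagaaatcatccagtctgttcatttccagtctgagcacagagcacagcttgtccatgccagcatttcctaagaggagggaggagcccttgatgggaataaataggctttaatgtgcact
The Serpina1 start regions were nearly the same sequence. Those of Serpina1c and Serpina1d were identical at 91.7% of their aligned positions, and the pairs among Serpina1a to Serpina1e ranged from 91.4% to 97%. All 5 held the HNF1 half-site, which 6.43% of 32851 mouse promoters hold in a window of this length. It starts 27 bases before the start of Serpina1c, 16 before that of Serpina1d and 21 before that of Serpina1a. An AP-1 match lies 239 bases before the start of Serpina1c, 229 before that of Serpina1d and 233 before that of Serpina1a, and Serpina1b holds it too, at 240 bases. The window of Serpina1e held no AP-1 match, and bases further upstream were not searched. Of all promoters, 6.75% hold such a match. The window of Serpina3n held none of the 4 motifs. Among the 47 serpin genes, 10 held the AP-1 letters, 6 the STAT letters (7.02% of all promoters), 9 the HNF1 letters and 11 the TATA letters (12.4%). A serpin gene was counted if any of its promoters held the letters, whereas the percentages count single promoters. These counts and percentages are therefore not alike and show no excess. The nearly identical Serpina1 copies hold part of the AP-1 and HNF1 matches counted here. These matches are letters in a window and not measured binding. Serpina1a and Serpina1b, which were not called, held the same marked letters as the 2 called genes.

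The Serpina1 genes are the mouse copies of alpha-1-antitrypsin, the plasma inhibitor of neutrophil elastase, which humans encode with a single gene. Of the 6 measured, Serpina1c and Serpina1d were called lower in QT cartilage and 4 were not called, with differences of -0.56 to -0.01.

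Serpina1c had log2 values of 4.27, 4.58, 7.29, 7.26, 7.36 and 5.90 in QT mice 1 to 6, against 8.42, 9.05, 8.36, 10.37, 8.62 and 7.96 in WT mice 1 to 6. Every QT mouse lay under every WT mouse. The QT mice themselves were widely spread, with replicates 1, 2 and 6 low and replicates 3, 4 and 5 close together. The means were 6.11 ± 1.42 in QT and 8.80 ± 0.85 in WT (SD, n = 6 mice each), a difference of -2.69 (95% interval -3.97 to -1.40, limma adjusted p = 0.0274) or 6.44-fold lower. Because the QT mean lay under the median of every array, the size of this fold is not exact.

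Serpina1d had values of 9.92, 9.39, 11.38, 10.87, 10.76 and 10.07 in QT mice 1 to 6, against 12.07, 11.63, 11.61, 11.55, 11.57 and 11.30 in WT mice 1 to 6. The same QT replicates 1, 2 and 6 were lowest, and QT replicate 3 lay just above WT replicate 6, so the groups overlapped by that 1 mouse. The means were 10.40 ± 0.73 in QT and 11.62 ± 0.25 in WT (SD, n = 6 mice each), a difference of -1.22 (95% interval -1.83 to -0.62, limma adjusted p = 0.0323) or 2.33-fold lower. The signal stayed well above the array medians in both genotypes.

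Both calls were close to the threshold, and single mice decided them. Serpina1c had an adjusted p of 0.0520 without QT replicate 2, 0.0567 without QT replicate 6, 0.0547 without WT replicate 2 and 0.0554 without WT replicate 4. Serpina1d was no longer called without QT replicate 1 or 6 or any 1 of WT replicates 1 to 5 (adjusted p of 0.0544 to 0.0706). Without the 2 male-looking WT mice neither gene passed, with differences of -2.94 (adjusted p = 0.0565) for Serpina1c and -1.32 (adjusted p = 0.0718) for Serpina1d, both larger in size than with these mice. With the replicate number as a block, Serpina1d gave the same difference with an adjusted p of 0.0867.

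The other copies gave smaller differences in the same direction. Serpina1a had values of 6.46, 6.66, 7.03, 6.82, 6.76 and 6.19 in QT mice 1 to 6, against 7.39, 6.91, 7.22, 7.91, 6.91 and 6.91 in WT mice. Its groups overlapped through QT replicate 3, and the difference was -0.56 (limma adjusted p = 0.131). Serpina1b had values of 6.09, 5.90, 6.65, 6.15, 6.36 and 5.93 in QT mice 1 to 6, against 6.42 to 6.66 in WT mice, a difference of -0.36 (adjusted p = 0.118). QT replicates 1, 2 and 6 were the 3 lowest mice in this gene as well. The difference was -0.24 (adjusted p = 0.554) in Serpina1e, where QT replicate 1 was lowest with 6.31 and QT replicate 5 highest with 7.73, and -0.01 (adjusted p = 0.958) in Serpina1f, which was dim in both genotypes. The start regions of Serpina1a to Serpina1e were nearly the same, whereas that of Serpina1f and the transcripts themselves were not compared. All 6 genes lie on chromosome 12. Probe sequences were not used here, so signal of 1 copy on the probes of another could not be separated, and the split between copies is uncertain.

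**Figure D2:**
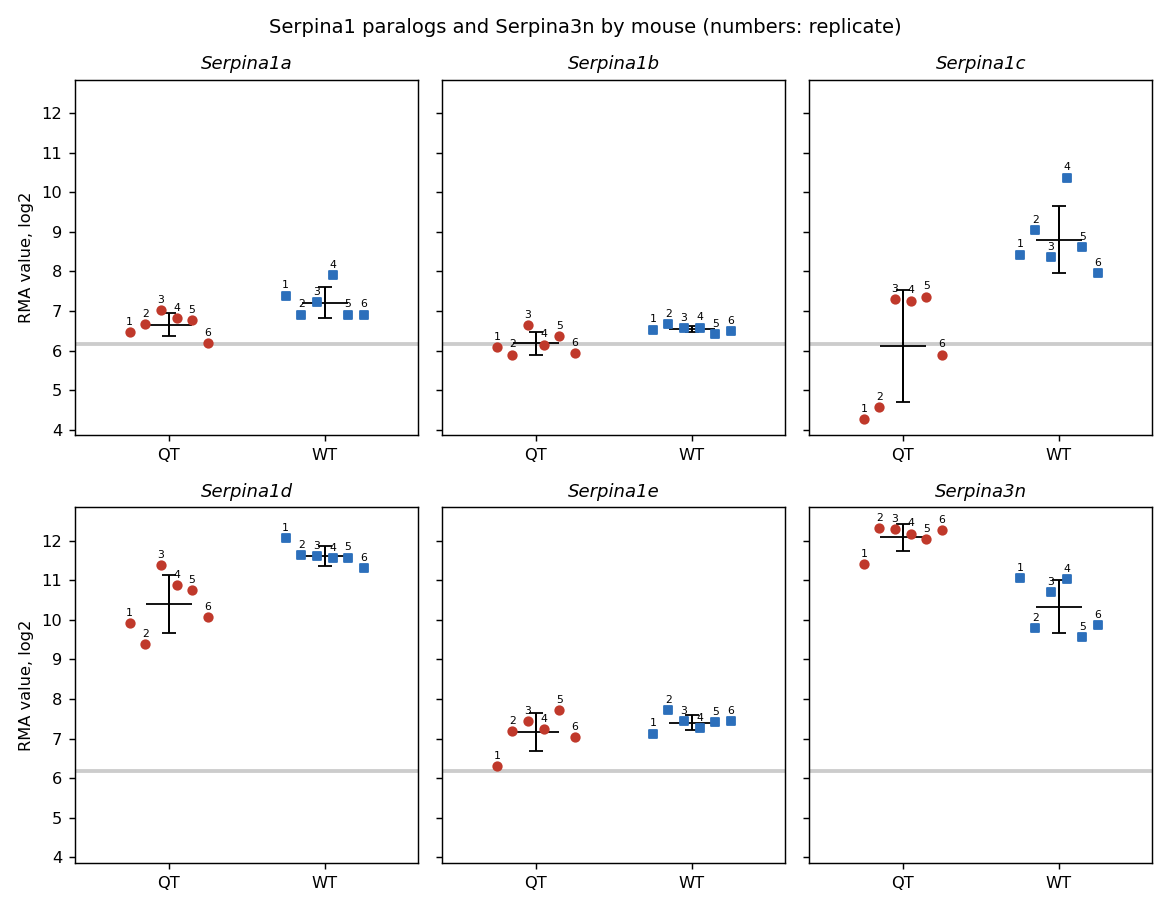
RMA log2 values (y axis) of 5 Serpina1 copies and Serpina3n in each mouse, QT left and WT right, with the replicate number above each point. Bars show the mean and SD of 6 mice, and the grey band spans the medians of the 12 arrays, 6.15 to 6.20. In Serpina1c and Serpina1d, QT replicates 1, 2 and 6 lie lowest. In Serpina3n every QT mouse lies above every WT mouse.

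Since alpha-1-antitrypsin is made mainly by hepatocytes, the hepatocyte list was read beside it. Of its 16 measured genes, 15 had both group means under the median of every array, with Alb, the gene of serum albumin, at 5.47 ± 0.47 in QT and 5.31 ± 0.35 in WT (SD, n = 6 mice each), and the exception was Cyp2e1. The mean of the list was 5.46 to 5.75 in QT mice and 5.49 to 5.65 in WT mice. The part of hepatocyte RNA in the Serpina1 values was not tested. Lists of 2 tissues next to the cartilage were lower in QT samples. Of 11 adipocyte genes 8 were called lower, (4 to 9 when 1 mouse was left out), and the list mean was 7.93 to 8.54 in QT mice and 8.76 to 9.68 in WT mice. Of 15 skeletal muscle genes 8 were called lower, (2 to 12 when 1 mouse was left out, and 0 without the 2 male-looking WT mice or with the replicate block), and the list mean was 8.14 to 9.11 in QT mice and 9.09 to 10.47 in WT mice. The 3 QT mice with the least Serpina1c, replicates 1, 2 and 6, had adipocyte means of 8.46, 8.09 and 8.54. Those of QT replicates 3, 4 and 5 were 8.49, 8.02 and 7.93. The skeletal muscle means were 9.11, 8.99 and 8.69 in QT replicates 1, 2 and 6. In QT replicates 3, 4 and 5 they were 9.07, 9.05 and 8.14. The part of these tissues in the Serpina1 differences was not tested.

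Serpina3n is the abundant mouse member of the family around human alpha-1-antichymotrypsin. It is a secreted inhibitor of leukocyte proteases, and an acute phase gene. It had values of 11.41, 12.32, 12.30, 12.18, 12.04 and 12.26 in QT mice 1 to 6, against 11.06, 9.80, 10.70, 11.02, 9.57 and 9.87 in WT mice 1 to 6. Every QT mouse lay above every WT mouse. QT replicate 1 was apart from the other QT mice, which lay close together between 12.04 and 12.32, while the WT mice were spread more widely. The means were 12.09 ± 0.35 in QT and 10.34 ± 0.67 in WT (SD, n = 6 mice each), a difference of 1.75 (95% interval 1.16 to 2.34, limma adjusted p = 0.00404) or 3.36-fold higher. Serpina3n was called higher under all 24 alternatives, with differences of 1.44 to 1.89 and limma adjusted p-values of 0.0021 to 0.0383. Of these alternatives, 12 left out 1 mouse each and another left out the male-looking WT mice. Those with a looser threshold could not lose the call.

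Of the 5 Serpina3 genes measured, Serpina3n was the 1 called, and the other 4 were dim, with both means under the medians of all arrays. Among these, Serpina3b had values of 5.16, 4.56, 4.93, 5.41, 4.90 and 5.32 in QT mice 1 to 6, against 4.41 to 4.69 in WT mice, a difference of 0.47 (limma adjusted p = 0.0639). Serpina3i, Serpina3j and Serpina3a differed by 0.28, 0.09 and -0.02. These genes also lie close together on chromosome 12, and the same doubt about shared probes holds for them.

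A further Serpina3 copy, Serpina3m, is left unnamed by the platform table and was named in the study's own list of genes altered in these mice. It is no member of the 54 and, since it was listed for its change, its values are a description without a test. They were 5.82, 5.87, 6.40, 6.81, 6.26 and 5.82 in QT mice 1 to 6, against 5.37, 5.47, 5.36, 5.82, 5.60 and 5.36 in WT mice 1 to 6, a difference of 0.67. The lowest QT mice reached the level of WT replicate 4.

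The remaining clade A genes include hormone carriers, plasma inhibitors and the pseudogene Serpina4-ps1, and all 9 were dim in both genotypes, with differences of -0.40 to 0.21. Serpina6, corticosteroid-binding globulin, came closest to the threshold of all 51 uncalled serpins and is named for that after its values were seen. Its values were 5.83, 5.64, 5.43, 5.46, 5.17 and 5.57 in QT mice 1 to 6, against 5.74 to 6.13 in WT mice, a difference of -0.40 (limma adjusted p = 0.0582). Only QT replicate 1 reached the WT range.

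None of the 25 clade B genes was called. Their differences ran between -0.63 and 0.53, the median was -0.06, the lowest adjusted p was 0.243, and limma gave 2 of them an unadjusted p under 0.05. Of the 25 genes, 20 had both means under every array median.

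Serpinb1a, an inhibitor of neutrophil elastase, cathepsin G and proteinase 3 that is stored by neutrophils themselves, varied most among the QT mice of the clade B genes. Its values were 8.35, 6.44, 7.33, 9.15, 7.22 and 7.57 in QT mice 1 to 6, against 6.81, 7.44, 7.03, 6.98, 7.15 and 7.48 in WT mice 1 to 6. QT replicates 1 and 4 were the highest of all 12 mice and QT replicate 2 the lowest. The difference of 0.53 had a 95% interval of -0.24 to 1.30 (limma adjusted p = 0.479). The mean of 14 neutrophil lineage genes was 10.74, 8.02, 9.76, 10.84, 9.48 and 9.71 in QT mice 1 to 6, against 7.93, 9.69, 7.84, 8.66, 9.15 and 9.31 in WT mice 1 to 6. Here too QT replicates 1 and 4 were highest, whereas QT replicate 2 was the lowest QT mouse. The median difference of the 14 genes was 0.89, and 0 of them were called by limma (6 had an unadjusted p under 0.05). A probe set shared by Serpinb10 and Serpinb2 was likewise highest in QT replicates 4 and 1, with 7.55 and 7.39, and lowest in QT replicate 2, with 5.12. The part of neutrophil number in the Serpinb1a values was not tested. The other Serpinb1 copies, Serpinb1b and Serpinb1c, were dim and differed by -0.23 and -0.07.

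Serpinb6a, which inhibits cathepsin G, was nearly the same in both genotypes. It had 7.33 ± 0.14 in QT and 7.39 ± 0.06 in WT (SD, n = 6 mice each), a difference of -0.06 with a 95% interval of -0.22 to 0.10 (limma adjusted p = 0.722). Its 4 measured paralogs differed by -0.22 to 0.12. Serpinb9, the inhibitor of granzyme B that protects cytotoxic cells from their own granules, had 7.64 ± 0.22 in QT and 7.76 ± 0.18 in WT (SD, n = 6 mice each). The difference was -0.12 with a 95% interval of -0.36 to 0.13 (adjusted p = 0.634). Serpinb8, which inhibits furin in human cells, differed by 0.07 with a 95% interval of -0.23 to 0.37.

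The 7 Serpinb9 genes differed by -0.63 to -0.01. The largest of these differences was that of Serpinb9e, with values of 3.73, 4.10, 4.06, 3.73, 3.83 and 3.21 in QT mice 1 to 6, against 5.09, 4.58, 3.30, 3.98, 4.82 and 4.69 in WT mice 1 to 6. WT replicate 3 lay among the QT mice and far from 4 of the other WT mice, and the difference had an adjusted p of 0.243 (limma). Without that mouse the gene was called lower. All of these values lie under the array medians. The 3 Serpinb3 genes, named for the human squamous cell carcinoma antigens, differed by -0.24 to 0.09 and were dim as well.

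The serpins best known from connective tissue were well above the array medians and differed little. Serpinh1 encodes Hsp47, the chaperone that holds procollagen in the endoplasmic reticulum. It had values of 11.09, 11.48, 11.06, 11.09, 11.33 and 11.46 in QT mice 1 to 6, against 11.07, 11.31, 11.33, 11.25, 11.46 and 11.45 in WT mice 1 to 6. The groups overlapped almost fully, and the difference of -0.06 had a 95% interval of -0.27 to 0.15 (limma adjusted p = 0.801). Of 15 fibrillar collagen and collagen-folding genes, the clients and partners of Hsp47, 0 were called by limma (1 had an unadjusted p under 0.05), with a median difference of 0.10. Col2a1 differed by -0.01 and Col1a1 by 0.12.

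Serping1, the C1 inhibitor of complement and of the contact system, had values of 11.06, 11.31, 11.14, 10.60, 10.85 and 11.09 in QT mice 1 to 6, against 11.33, 10.83, 11.17, 10.88, 10.43 and 10.47 in WT mice 1 to 6. The 2 lowest WT values were those of replicates 5 and 6, the male-looking mice. The difference was 0.16 with a 95% interval of -0.20 to 0.51 (limma adjusted p = 0.671), and it was -0.04 without both of these mice. Of its target proteases and their partners, the complement C1 and lectin pathway genes, 0 of 7 were called by limma (2 had an unadjusted p under 0.05), with a median difference of 0.16. C1qb differed by 0.07. Masp1, a lectin pathway protease that C1 inhibitor blocks, differed by 0.45 with no overlap between the genotypes (5.61 to 6.10 in QT and 5.05 to 5.44 in WT, adjusted p = 0.0312), at a fold of 1.37 that is under the threshold of 1.5.

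Serpinf1, pigment epithelium-derived factor, a secreted serpin that blocks vessel growth and inhibits no protease, had values of 9.12, 9.40, 8.87, 8.88, 9.37 and 9.69 in QT mice 1 to 6, against 8.94, 9.13, 9.10, 8.93, 8.93 and 9.14 in WT mice 1 to 6. QT replicates 2, 5 and 6 lay above all WT mice, whereas QT replicates 3 and 4 lay below all of them. The difference was 0.19 with a 95% interval of -0.09 to 0.48 (limma adjusted p = 0.481).

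**Figure D3:**
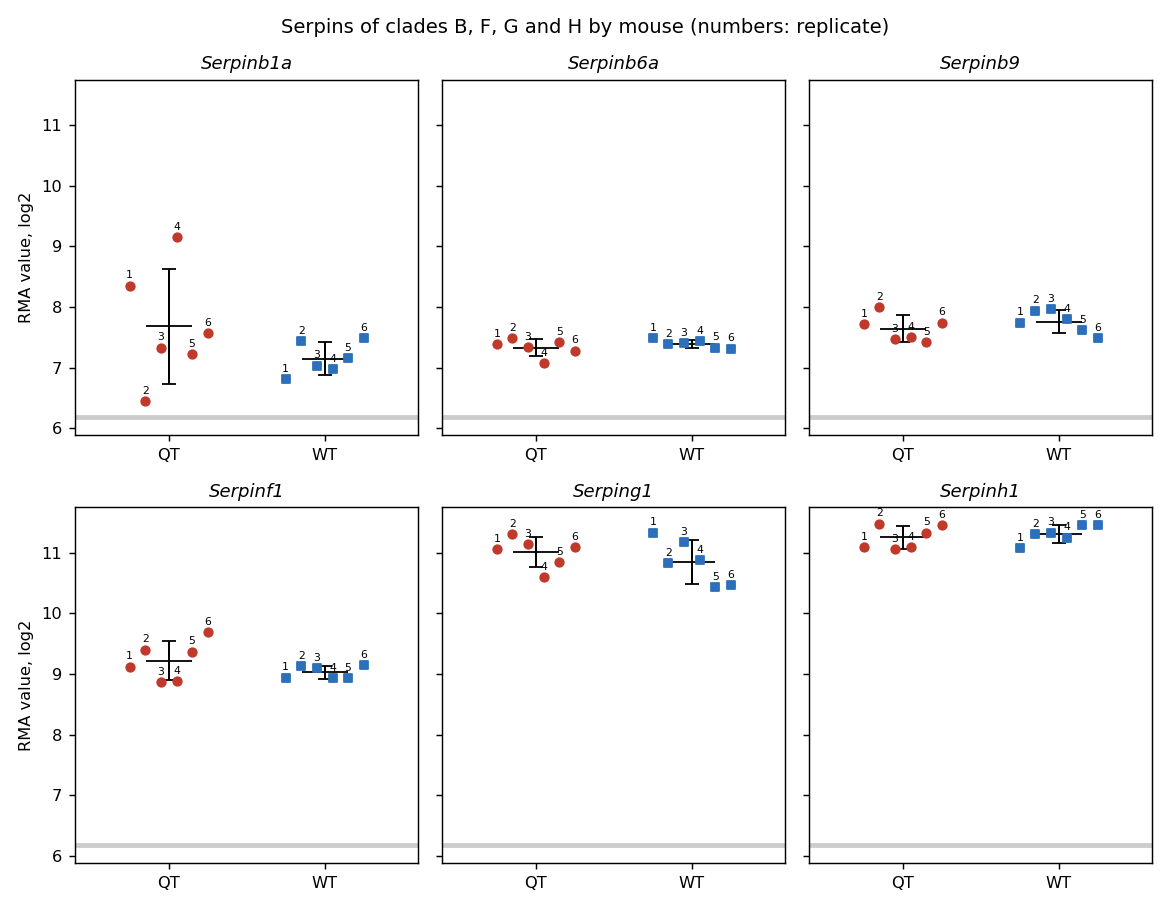
RMA log2 values (y axis) of 6 serpins of clades B, F, G and H in each mouse, QT left and WT right, with the replicate number above each point. Bars show the mean and SD of 6 mice, and the grey band spans the array medians. In each of the 6 genes the QT and WT mice overlap, and Serpinb1a spreads from 6.44 to 9.15 within QT.

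The serpins that control clotting and fibrin breakdown in plasma were dim. Serpinc1, antithrombin, differed by 0.02, Serpind1, heparin cofactor II, by -0.03, and Serpinf2, alpha-2-antiplasmin, by 0.04. Their 95% intervals were -0.19 to 0.23, -0.16 to 0.10 and -0.12 to 0.19, all at levels under the array medians. Serpine3 differed by 0.01 and Serpini2 by 0.03. Serpini1, neuroserpin, an inhibitor of tissue-type plasminogen activator in the nervous system, had values of 4.32 to 4.74 in QT mice and 4.66 to 5.15 in WT mice. QT replicate 3 alone reached the WT range, and the difference was -0.35 (limma adjusted p = 0.0732).

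Lists of proteases, cofactors, inhibitors and receptors around the serpins were read next, beside 0.595% of all probe sets called higher and 1.01% lower. In the plasminogen activation list, 1 of 11 genes rose and 1 fell in QT cartilage, with a median difference of 0.09. Plaur, the urokinase receptor, had values of 7.56 to 7.93 in QT mice and 6.20 to 7.28 in WT mice, and rose by 0.95 (limma adjusted p = 0.00478). Thbs1, thrombospondin 1, fell by 0.73 (adjusted p = 0.00221). The activators Plau and Plat differed by 0.09 and 0.46 and were not called. Mmp3 had the largest difference of the list, 1.29, and was not called either (limma adjusted p = 0.0711). Its values were 7.74 to 10.13 in QT mice and 7.08 to 8.47 in WT mice.

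In the clotting list, 9 of 20 genes had an unadjusted p under 0.05 by limma. F13a1, of factor XIII, differed by 0.58 with no overlap between the genotypes (limma adjusted p = 0.024). Its fold of 1.49 is under the threshold of 1.5. Of the 20 genes 3 rose by the calls and 0 fell, with a median difference of 0.15. They were F3, tissue factor, at 9.43 ± 0.56 in QT and 8.16 ± 0.39 in WT, a rise of 1.27 (limma adjusted p = 0.0147), F5, factor V, with 1.08, and Tfpi2, a Kunitz-type protease inhibitor, with 0.79. Of 14 granule protein genes of neutrophils, mast cells and cytotoxic cells, among them targets of Serpina1, Serpina3n, Serpinb1a and Serpinb9 and also Prf1 and Cpa3, which encode no serine protease, 0 were called by limma (5 had an unadjusted p under 0.05) and the median difference was 0.32. Elane, neutrophil elastase, was at 10.87 ± 1.00 in QT and 10.20 ± 0.86 in WT (SD, n = 6 mice each), a spread within each genotype as wide as the difference between them. Of the epithelial and kallikrein proteases 0 of 14 were called by limma, with a median difference of 0.06. Of the receptors that clear serpin complexes and their chaperone Lrpap1, 0 of 6 were called, with a median difference of -0.08. In each of these lists 1 gene had an unadjusted p under 0.05. In the first it was St14, the epithelial protease matriptase, with a difference of 0.51, a limma adjusted p of 0.0457 and a fold of 1.42. In the second it was Lrpap1, with a difference of -0.28 (limma adjusted p = 0.0728). Its values did not overlap, with 9.07 to 9.48 in QT and 9.53 to 9.72 in WT. Lrp1, the main such receptor, differed by -0.17.

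Inhibitors of other families moved in both directions. Of 27 measured, 2 rose and 2 fell, with a median difference of 0.02. Slpi, a secreted inhibitor of leukocyte elastase that is no serpin, rose by 1.64 (9.08 ± 0.49 in QT and 7.44 ± 0.29 in WT, SD, n = 6 mice each, limma adjusted p = 0.00116), and Tfpi2 rose as given above. Itih5, an inter-alpha-trypsin inhibitor heavy chain, fell by 1.64, and Wfdc1 fell by 0.84.

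Serpina3n belongs to the acute phase genes that cytokines of the interleukin-6 family induce through STAT3. Of 25 other genes in the acute phase and STAT3 list, 10 were called higher in QT cartilage, 0 lower and 15 not at all. The median difference was 0.78, and of all probe sets 0.595% were called higher. The list also holds cytokines of that family and Stat3 itself. The largest increases were those of Il11, a cytokine of that family, with 2.84, Chil1, a chitinase-like secreted protein, with 1.94, Saa3, serum amyloid A3, with 1.59, and Hp, haptoglobin, with 1.18. Il6 itself differed by 0.80 and was not called (limma adjusted p = 0.239). Among the other uncalled genes, Orm1 differed by -0.69 (adjusted p = 0.306), and Lbp and Cp by -0.03 each. Stat3 differed by 0.40 (adjusted p = 0.00391), at a fold of 1.32 that is under the threshold. Several genes of the list were known to be altered in these mice when it was made, so that it is no independent evidence of a direction. Of 15 TGF-beta induced genes 1 rose, Ltbp2 with 0.76, with a median difference of 0.17.

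**Figure D4:**
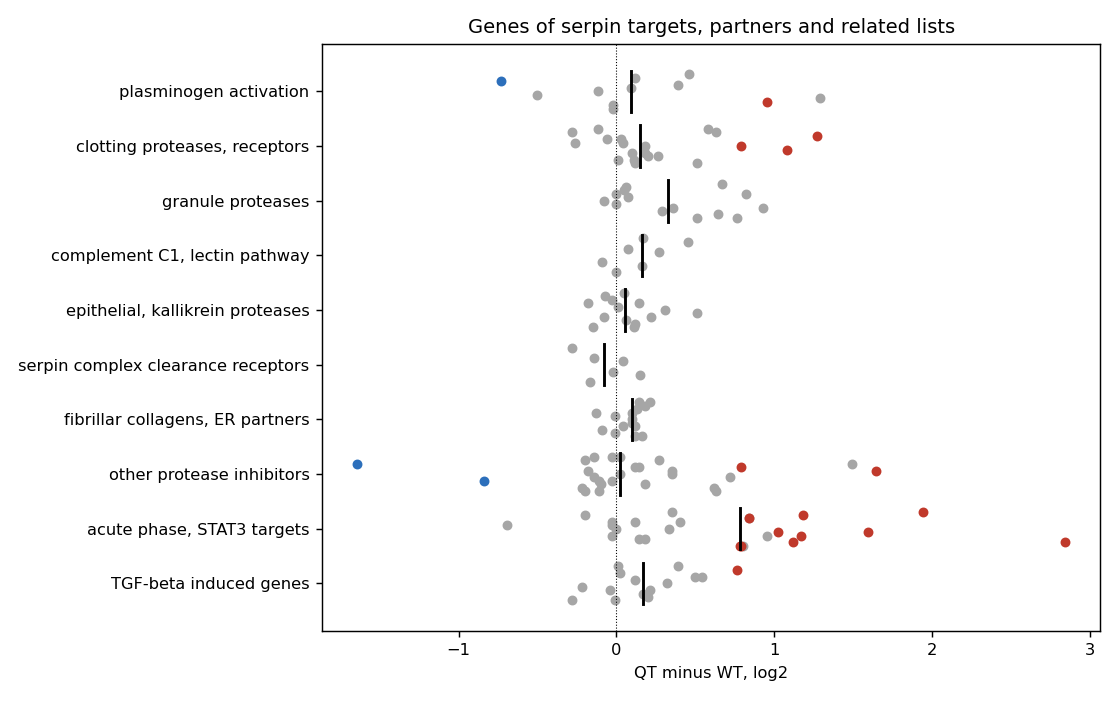
Log2 difference (QT minus WT, x axis) of each gene in 10 lists of serpin targets, partners and related genes. Red points were called higher, blue points lower and grey points were not called, and the black bar is the median of the list. The acute phase and STAT3 list has 10 red points and a median of 0.78, and the medians of the other 9 lists lie between -0.08 and 0.32. Cell type lists are not drawn, and their medians ran from -0.99 (skeletal muscle) to 0.89 (neutrophil lineage).

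The remaining cell type lists were as follows. Of the hypertrophic chondrocyte genes, 2 of 6 fell, Ihh and Panx3. Of the osteoblast and osteocyte genes 2 of 9 rose, Dmp1 and Mepe, and of the osteoclast genes 1 of 8, Calcr. Of the keratinocyte genes 2 of 14 fell, Sbsn and Dmkn, of the tendon and fibroblast genes 1 of 10, Cilp, and of the neuron and glia genes 1 of 8, S100b. Fgg was the 1 hepatocyte gene of 16 called, higher by 1.02 at values under the array medians. By limma no macrophage (10), mast cell (8), lymphocyte (10), erythroid (5) or endothelial (9) gene was called. Of these, 3 macrophage, 5 mast cell, 0 lymphocyte, 0 erythroid and 1 endothelial gene had an unadjusted p under 0.05.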

How the data were processed

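RNA of sternal cartilage from 6 QT and 6 WT mice (biological replicates per the labels) was hybridised to 1 array per mouse. The authors deposited log2 values computed by RMA in Partek 6.6 (per the submitters' processing notes). RMA subtracts background, forces a common distribution on the arrays and combines the probes of a set, so a shift common to most genes is lost. The genome build was not found in the labels or methods. Of 41345 probe sets, 23521 are named for 1 gene by the platform annotation, 1820 for several and 16004 not at all. The number of mice limits the precision.

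QT and WT were set against each other by limma 3.58.1 under R 4.3.3 (lmFit and eBayes, 10 residual and 2.93 prior degrees of freedom), 2-sided, with Benjamini-Hochberg adjustment over all probe sets. The procedure was tested on simulated data. No 2 arrays held the same values (correlations 0.9595 to 0.9897). Results were recomputed after rescaling, without dim or ambiguous probe sets, under different variance models and thresholds, with a replicate block, and with mice left out. The members and lists were chosen with earlier results of these data known. Serpins were named where the adjusted p was under 0.05 or the genotypes did not overlap, for the 3 brightest genes of each clade and within paralog groups, and list genes by their call or brightness. Serpina6, Alb, Cyp2e1, Plau, Plat, Il6, Orm1, Lbp, Cp, Stat3, Masp1, Comp, Snorc, St14, Prf1 and Cpa3 were named after their values were seen. So were F13a1, Lrpap1 and Mmp3.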

Additional observations from a re-analysis of the deposited data

Results flagged for a closer look

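Among 28 genes with 56 groups of 6 mice, 3 values lay far from the others of their group by Dixon's criterion, which chance meets in about 1 of 20 groups. For Serpina3n, QT replicate 1 had 11.41, apart from its 5 group mates at 12.04 to 12.32, but was still above every WT mouse. For Serpina1f, QT replicate 2 had 5.12, against 5.24 to 5.28. For Serpind1, QT replicate 3 had 5.77, against 5.51 to 5.56. The last 2 genes lie under the array medians.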

How the results depend on the processing

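Serpina3n was the serpin called higher under all 24 alternatives. The number of serpins called lower, 2, was 1 with the replicate block and 0 without WT replicates 5 and 6 together, and 0 to 2 when 1 mouse was left out. The same-numbered mice did not deviate together (correlations -0.213 to -0.00836), so the numbers do not pair the mice, and the replicate block called 423 probe sets in place of 665. Without WT replicates 5 and 6 together, Serpinc1 had a difference of -0.02, Serpine3 -0.01, Serping1 -0.04, Serpinh1 0.01 and Serpini2 -0.09, each of the other sign. With 1 mouse left out, Serpinc1 ranged from -0.04 to 0.08, Serpine3 from -0.02 to 0.05 and Serpini2 from -0.05 to 0.08. None of these genes was called under any alternative, and the cause was not tested. With no minimum fold 1449 probe sets were called, with the same 3 serpins. Without dim probe sets 14 serpins were tested. Among the lists, the call of Fgg was lost under 12 alternatives and that of S100b under 11. Plasminogen activation had 1 to 2 genes called higher, other inhibitors 1 to 3, neutrophil lineage 0 to 3, and lymphocytes 0 to 3 called lower. Without QT replicate 2, 3 neutrophil lineage genes were called higher.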
